A study of Danio rerio with 8 samples.

Results

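The mitochondrial genome of the zebrafish was followed here as a group of 37 genes, all rows of the deposited count table that lie on chromosome MT, out of 32520 gene rows in all. They are 13 mRNAs, 2 rRNAs and 22 tRNAs, of which 28 lie on the plus strand of the annotation and 9 on the minus strand. RNA was sequenced from the cardiac ventricle of adult zebrafish in 8 pools of 5 ventricles each, taken 7 days after cryoinjury, in which part of the ventricle is killed by freezing. Of these pools, 4 came from fish homozygous for a cox7a1 mutation (cox7a1-/-, called mutant here) and 4 from their wildtype siblings. Every ventricle was injured, so no uninjured tissue stands beside these values, and the labels give neither the mutant allele nor the age or sex of the fish.

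A vertebrate mitochondrial genome is a small circle that is transcribed from both strands into long precursors, from which enzymes release the rRNAs, the mRNAs and the tRNAs that lie between them like punctuation. The heavy-strand transcript carries both rRNAs and nearly all mRNAs, and the light-strand transcript carries mt-nd6 and a minority of the tRNAs. The mRNAs encode core subunits of respiratory complexes I, III and IV and of the ATP synthase, which assemble with many subunits made from nuclear genes, and heart muscle is known for a very high content of these transcripts. Cox7a1, the gene mutated here, is a nuclear gene for a subunit of complex IV, the enzyme whose catalytic core is encoded by mt-co1, mt-co2 and mt-co3. The study's title names dimers of complex IV and the response of the heart to injury as its subject.

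Total counts ran from 41556101 to 69057989 per pool. Levels are in CPM, counts set relative to library size with TMM factors, and levels of different genes are compared only in CPM per kilobase of gene length. The targeted transcript was still present in each mutant pool, at 59.52, 113.1, 88.46 and 193.9 CPM in mutant replicates 1 to 4 and 209.7, 278, 285.9 and 210.6 CPM in wildtype replicates 1 to 4. The groups did not overlap, as in the 5.48% of all tested genes in which all 4 mutant values were lower than all 4 wildtype values. The adjusted p of edgeR over all tested genes was 0.0776, above the threshold of 0.05. It passed without mutant replicate 4 (0.0144), with no filter on low counts (0.0412) and with DESeq2 (0.00341), and over all alternatives it ran up to 0.22. Cardiomyocyte markers were plentiful in both groups, with the 15 rows of that list summing to 43820 to 51540 CPM in wildtype and 46050 to 62330 CPM in mutant pools. Skeletal muscle markers summed to at most 62.62 CPM. The summed markers of atrial cardiomyocytes did not overlap, at 1353 to 1671 CPM in wildtype and 1816 to 2686 CPM in mutant pools. Most of this sum was a single row named MYH6, with means of 1304 CPM in wildtype and 1946 CPM in mutant pools (edgeR adjusted p = 0.0566). A second tested row of that name had means of 147.9 and 176.4 CPM. The log2 fold change was 0.98 for myl4, at means of 0.4517 and 0.8893 CPM, and -0.51 for NR2F1. Of the 4 tested rows 3 had positive fold changes and 0 were called. The sum was not tested, and no difference in atrial cells is read from it. A bulk pool cannot tell fewer cells of a type from less RNA per cell, and this holds for each level below.

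Mitochondrial transcripts took between 13.33% and 17.38% of the counts of a library, and wildtype and mutant pools overlapped. Their share of all counts was 14.28%, 15.66%, 17.38% and 14.01% in wildtype replicates 1 to 4. It was 14.14%, 15.02%, 15.01% and 13.33% in mutant replicates 1 to 4. The means were 15.3% ± 1.55 (SD, n = 4) and 14.4% ± 0.811 (SD, n = 4), and wildtype replicate 3 was the highest of all pools and mutant replicate 4 the lowest. The log2 ratio of the mean shares was -0.09, and it was -0.03 without wildtype replicate 3. A 95% Wilson interval for a single pool's share was at most 0.0106 percentage points to either side, which covers counting error only, so the spread between pools is far wider than the counting error. A single gene, mt-co1, which encodes the catalytic subunit of complex IV, held 4.74% ± 0.44 of all counts in wildtype and 4.51% ± 0.457 in mutant pools (SD, n = 4 each).

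By class, mRNAs took most of the mitochondrial counts, rRNAs nearly all the rest and tRNAs a trace. Whether rRNA was depleted or polyadenylated RNA selected is not given, so these shares of counts are not shares of tissue RNA. The mRNA share of mitochondrial counts was 91.71%, 91.16%, 91.78% and 91.87% in wildtype replicates 1 to 4, a range of less than 1 percentage point. It was 92.66%, 87.7%, 87.8% and 90.62% in mutant replicates 1 to 4, so that mutant pools lay on both sides of the wildtype range. Wildtype replicates 1 to 4 held 8.244%, 8.779%, 8.154% and 8.057% rRNA, and mutant replicates 1 to 4 held 7.266%, 12.19%, 12.13% and 9.319%. Mutant replicates 2 and 3 had the highest rRNA shares and mutant replicate 1 the lowest of all 8 pools, and the SD was 0.323 percentage points among wildtype and 2.39 among mutant pools. The tRNA share averaged 0.058% ± 0.0124 in wildtype and 0.0756% ± 0.0216 in mutant pools (SD, n = 4 each), from 0.04214% in wildtype replicate 1 to 0.1069% in mutant replicate 2. As sums over these genes, the shares were given no test.

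**Figure D1:**
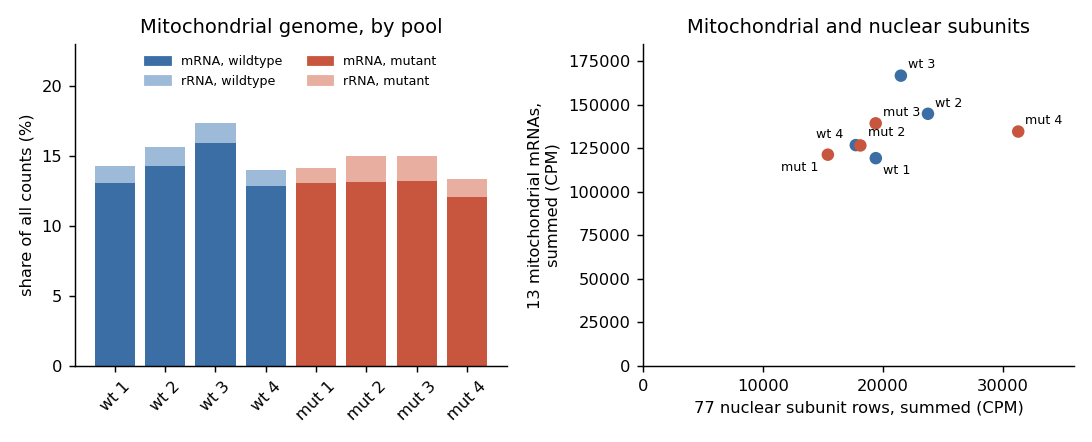
Left, the share of all counts (percent) taken by mitochondrial mRNA and rRNA in each of the 8 pools, as stacked bars. Right, the summed level of the 13 mitochondrial mRNAs against that of 77 nuclear gene rows for respiratory complex subunits, both in CPM, with 1 point per pool. Total shares of wildtype and mutant pools overlap, and mutant replicate 4 stands apart on the nuclear axis at 31310 CPM and not on the mitochondrial one.

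Of the rRNAs of the mitochondrial ribosome, mt-rnr1 did not overlap between the genotypes and mt-rnr2 did. Among the 29 tested members mt-rnr1 was the only 1 without overlap, beside 11.7% of all tested genes. How rRNA was handled in library preparation is not given, and the part of that step in the rRNA values was not tested. The gene mt-rnr1 (ENSDARG00000082753; GRCz11, chromosome MT, 1020 to 1971, plus strand), whose product is the RNA of the small ribosomal subunit, measured 949.4, 1530, 1563 and 1062 CPM in wildtype replicates 1 to 4. In mutant replicates 1 to 4 it measured 614.1, 848.7, 539.6 and 896.4 CPM. No mutant pool reached the lowest wildtype pool, with means of 1276 ± 316 CPM and 724.7 ± 175 CPM (SD, n = 4 each). Mutant pools stood at 0.568-fold of wildtype, a log2 fold change of -0.82 ± 0.212 (SE), and edgeR's quasi-likelihood test gave an adjusted p of 0.0741, which did not pass the threshold. Among all tested genes, 5.48% separated the groups in this direction, and 18% had an unadjusted p under 0.05. With DESeq2 in place of edgeR the adjusted p was 0.00493, and with no filter on low counts it was 0.0493, so mt-rnr1 was called under these settings and under none of the other 15 settings tried, where adjusted p ran up to 0.2.

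The gene mt-rnr2 (ENSDARG00000080337; chromosome MT, 2043 to 3725, plus strand), whose product is the RNA of the large ribosomal subunit, did not follow mt-rnr1. It measured 9788, 12430, 13260 and 10070 CPM in the wildtype pools and 8904, 16770, 18730 and 12960 CPM in the mutant pools, both in replicate order. The groups overlapped, since mutant replicate 1 was the lowest pool and mutant replicates 2 and 3 the highest. The log2 fold change was 0.33 ± 0.216 (SE), with an adjusted p of 0.455. The rRNAs lie on the same strand with only trnV, a tRNA gene of 71 bases, between them.

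Set against each other within a pool, the rRNAs separated the genotypes fully. There were 10.31, 8.124, 8.485 and 9.476 counts of mt-rnr2 for each count of mt-rnr1 in wildtype replicates 1 to 4. In the mutant pools, in the same order, there were 14.5, 19.76, 34.7 and 14.45. Mutant replicate 3, with the lowest mt-rnr1 and the highest mt-rnr2, had the highest ratio, and the other mutant pools still lay above each wildtype pool. Per length, mt-rnr2 stood at 5.15 ± 0.559 times mt-rnr1 in wildtype and 11.8 ± 5.41 times in mutant pools (SD, n = 4 each). The share of mt-rnr1 in mitochondrial counts also did not overlap, at 0.729% to 0.9623% in wildtype and 0.3398% to 0.603% in mutant pools, whereas that of mt-rnr2 did. These ratios were taken up after the values had been seen and were not tested. Both the ratio and the mt-rnr1 share reuse the mt-rnr1 counts, whose CPM already did not overlap, so they are not separate results. The sum of atrial cardiomyocyte markers, most of it from a single MYH6 row, also separated the genotypes without overlap, beside 6.27% of all tested genes in that direction. Of its 4 tested rows, 3 had positive fold changes and 0 were called. The erythrocyte markers summed to 545.8 to 931.9 CPM in wildtype and 620.8 to 1715 CPM in mutant pools, which overlapped, with mutant replicate 3 highest. Of their 4 tested rows, 4 had positive fold changes and 0 were called. The part of either sum in the rRNA difference was not tested.

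**Figure D2:**
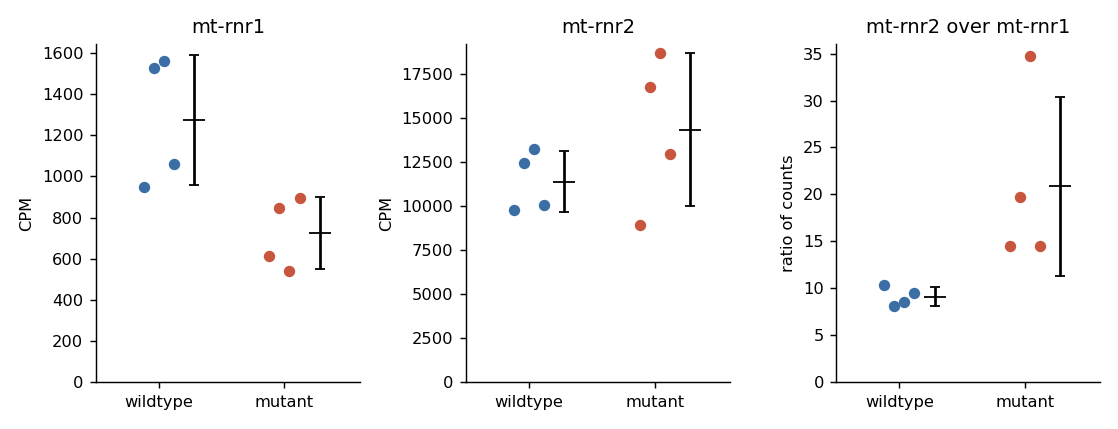
Levels of mt-rnr1 and mt-rnr2 (CPM) and the ratio of their counts in the 4 wildtype and 4 mutant pools; points are pools, and the bars beside them give the mean and the SD. The groups do not overlap for mt-rnr1 (949.4 to 1563 against 539.6 to 896.4 CPM) or for the ratio (8.124 to 10.31 against 14.45 to 34.7), and they overlap for mt-rnr2.

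Levels per length differed widely between genes, including heavy-strand genes. The highest was mt-co1, with 30310 ± 4285 CPM per kilobase in wildtype and 29370 ± 1442 in mutant pools (SD, n = 4 each), and it led in each of the 8 pools. Next came mt-co2, mt-atp6 and mt-co3, with means over all pools of 21320, 18590 and 16470 CPM per kilobase, and mt-cyb, the only mitochondrial gene for a complex III subunit, with 12870. The pool ranges of mt-co2 (17850 to 27890), mt-atp6 (13230 to 23710) and mt-co3 (12950 to 20470) overlapped over the pools, but within each of the 8 pools the order was mt-co2, mt-atp6, mt-co3 and mt-cyb. A middle group held mt-nd4 (7657), mt-rnr2 (7643), mt-nd1 (7068) and mt-nd2 (6489 CPM per kilobase). Of these, mt-nd1 lay above mt-nd2 in each of the 8 pools and mt-nd4 above mt-nd1 in 7, while mt-rnr2 lay above mt-nd4 in 3 pools. Then came mt-nd5 (3855), mt-nd3 (2969), mt-nd4l (2851) and mt-atp8 (1900). Reads that touched 2 genes on their strand were not counted. The genes mt-nd3 (351 bases), mt-nd4l (297) and mt-atp8 (165) are short and overlap a same-strand neighbour. The genes mt-atp6, mt-co3, mt-nd4 and mt-nd2 also overlap a same-strand neighbour. Others, among them mt-rnr1, mt-rnr2, mt-nd1 and mt-co2, border a same-strand neighbour with 0 bases between. The part of length, overlap and close neighbours in the levels per length was not tested. The rRNA mt-rnr1, at 1051 CPM per kilobase, lay below the 12 heavy-strand mRNAs in each of the 8 pools. With the handling of rRNA in the libraries not given, the rank of the rRNAs among the mRNAs holds for counts only. The light-strand mRNA mt-nd6 was the lowest mRNA in each of the 8 pools, at 399.3 CPM per kilobase.

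**Figure D3:**
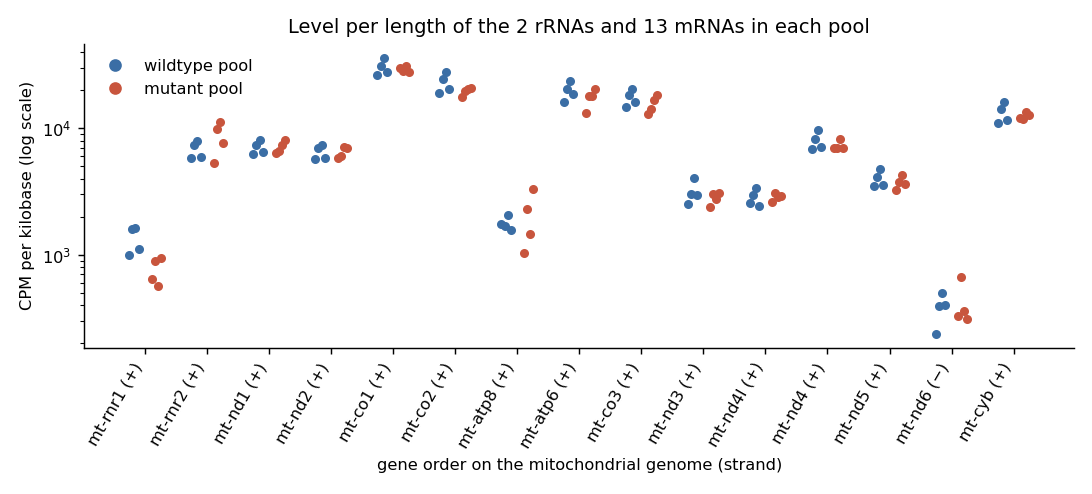
Level per length (CPM per kilobase, log axis) of the 2 rRNAs and 13 mRNAs in gene order, with the strand in brackets; each point is a pool. Levels run from a mean of 29840 for mt-co1 to 399.3 for mt-nd6, wildtype and mutant pools overlap for each mRNA, and mt-rnr1 is the gene without overlap.

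The 3 complex IV mRNAs, which encode the core of the enzyme, overlapped between the genotypes and did not pass the test. The gene mt-co1 (ENSDARG00000063905; 6425 to 7975) measured 41220, 47910, 56020 and 42890 CPM in wildtype replicates 1 to 4 and 46160, 44320, 48400 and 43320 CPM in mutant replicates 1 to 4. Wildtype replicate 3 was the highest pool and wildtype replicate 1 the lowest, with the mutant pools between them. Its log2 fold change was -0.05 ± 0.139 (SE) with an edgeR adjusted p of 0.902, and its sign turned without wildtype replicate 3 or when levels were scaled to the mitochondrial total.

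The gene mt-co2 (ENSDARG00000063908; 8130 to 8820), for the subunit that receives electrons from cytochrome c, measured 13120, 16840, 19280 and 14250 CPM in wildtype and 12330, 13610, 14070 and 14350 CPM in mutant replicates 1 to 4. Mutant pools lay at the lower end of the wildtype range or, in replicate 1, below it, and the log2 fold change was -0.22 ± 0.147 (SE), adjusted p = 0.461 with edgeR. As a share of mitochondrial mRNA counts, mt-co2 did not overlap, at 11.4% ± 0.296 in wildtype and 10.4% ± 0.332 in mutant pools (SD, n = 4 each). It was the only one of the 13 mRNAs whose share did not overlap, beside 11.7% of all tested genes whose CPM did not overlap, and the shares were not tested. The gene mt-co3 (ENSDARG00000063912; 9735 to 10520), for the third core subunit, measured 11550, 14350, 16090 and 12770 CPM in wildtype and 10180, 11100, 13160 and 14370 CPM in mutant replicates 1 to 4. Mutant pools reached both below and into the wildtype range, with a log2 fold change of -0.17 ± 0.157 (SE) and an adjusted p of 0.635, or -0.25 and 0.329 without mutant replicate 4.

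The 7 complex I mRNAs, mt-cyb and the ATP synthase mRNAs likewise overlapped between the groups. The share of each complex in the mitochondrial mRNA counts overlapped between the genotypes. Complex IV held 54.9% ± 0.274 in wildtype and 54.7% ± 1.33 in mutant pools, and complex I held 24.4% ± 0.334 and 25% ± 0.525 (SD, n = 4 each). Complex III, by mt-cyb alone, held 10.8% ± 0.368 and 10.9% ± 0.314, and ATP synthase 9.87% ± 0.347 and 9.37% ± 1.37. The ATP synthase share ran from 7.6% in mutant replicate 1 to 10.8% in mutant replicate 4. The wildtype SDs were below those of the mutant pools for complexes I and IV and for ATP synthase, and not for complex III. Of the 13 mRNAs, 8 had negative log2 fold changes, from -0.22 to 0.20, with a median of -0.08 beside a median of 0.00 over all 17949 tested genes. With levels scaled to the mitochondrial total the mRNA median was -0.01, and without wildtype replicate 3 it was 0.03, so no direction is given for the mRNAs as a group. Wildtype replicate 3 was the highest pool for 11 of the 12 heavy-strand mRNAs.

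The exception among them was mt-atp8, a short gene for an ATP synthase subunit that shares 7 bases with mt-atp6 on the same transcript, chosen here after its values were seen. It measured 286.8, 279.9, 339.5 and 260.8 CPM in wildtype and 169.8, 379.2, 240.5 and 551.3 CPM in mutant replicates 1 to 4. The mutant pools enclosed the wildtype range, with mutant replicate 4 highest and mutant replicate 1 lowest. The log2 fold change was 0.20 ± 0.291 (SE), adjusted p = 0.775 with edgeR, and its sign turned without mutant replicate 4. Across the other 11 heavy-strand mRNAs the highest pool was 1.28 to 1.79 times the lowest.

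The mitochondrial mRNAs were also set against the nuclear side of the same complexes. The 13 mRNAs summed to 119400, 144900, 166800 and 126900 CPM in wildtype and 121400, 126700, 139400 and 134700 CPM in mutant replicates 1 to 4. The 77 nuclear rows for subunits of complexes I, III and IV and of ATP synthase summed to 19430, 23780, 21520 and 17760 CPM in wildtype and 15430, 18140, 19420 and 31310 CPM in mutant replicates 1 to 4. In 7 pools there were 6.095 to 7.869 mitochondrial mRNA counts for each nuclear one, and in mutant replicate 4 there were 4.303. Mutant replicate 4 thus had the highest nuclear sum with a mitochondrial sum inside the range of the others. It was also the mutant pool with the most cox7a1. The mean log2 level of long nuclear genes less that of short ones, centred over the pools, was lowest in mutant replicate 4 (-0.18). It was highest in mutant replicate 1 (0.18), the pool with the lowest nuclear sum. The part of gene length in the nuclear sums, the ratio and the cox7a1 level was not tested. Of 76 tested nuclear rows, 0 were called in either direction by edgeR, beside 2.02% of all tested genes. In the complex IV list, which holds cox7a1, 2 of the 20 rows had an unadjusted p under 0.05, and in the lists for complexes I and III and ATP synthase 0 did, beside 18% of all tested genes.

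The light strand of the mitochondrial genome gave a small and variable part of the counts. Its 9 genes, mt-nd6 and 8 tRNAs, took 0.1061%, 0.1547%, 0.1759% and 0.1851% of mitochondrial counts in wildtype replicates 1 to 4. They took 0.1585%, 0.312%, 0.1463% and 0.1277% in mutant replicates 1 to 4. Mutant replicate 2 stood above the other 7 pools and wildtype replicate 1 below them. The log2 ratio of the mean shares was 0.26, and it was -0.11 without mutant replicate 2. The gene mt-nd6 (ENSDARG00000063922; 14714 to 15232, minus strand), for a membrane subunit of complex I, made up 83.6% ± 3.83 of light-strand counts in wildtype and 80.8% ± 2.9 in mutant pools (SD, n = 4 each). It measured 123.3, 203.2, 260.4 and 207 CPM in wildtype and 168.9, 348.4, 186.5 and 160 CPM in mutant replicates 1 to 4. The groups overlapped widely, and the log2 fold change of 0.12 ± 0.272 (SE), adjusted p = 0.861 with edgeR, changed sign without mutant replicate 2 or without wildtype replicate 1.

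Light-strand genes varied between pools by more than most heavy-strand mRNAs, but not by more than every other heavy-strand gene. The ratio of highest to lowest pool was 2.77 to 21.5 for the 9 light-strand genes, beside 1.28 to 1.79 for the 11 heavy-strand mRNAs other than mt-atp8. It was 3.25 for mt-atp8, 2.9 for mt-rnr1 and 2.1 for mt-rnr2. Of the 6 tested heavy-strand tRNAs, it was 16 for trnW, 3.55 for trnF and 1.48 to 1.85 for trnI, trnM, trnD and trnT. Thus mt-atp8, mt-rnr1, trnW and trnF lie within the light-strand range. Mutant replicate 2 was the highest pool for 6 of the 9 light-strand genes and for 1 of the 20 tested heavy-strand genes. Most of the light-strand tRNAs had few counts, so part of their range is counting error. The same holds for trnW (2 to 44 counts per pool) and trnF (11 to 48). The light-strand genes mt-nd6 and trnS1 had more, 7246 to 17192 and 444 to 4260 counts per pool, with ratios of 2.83 and 11.4. Light-strand genes took at most 0.312% of mitochondrial counts in a pool, and reads of heavy-strand transcripts assigned to the wrong strand would be counted on them, a part that was not tested.

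The tRNA genes were counted very unevenly, and those with a same-strand neighbour close by on both sides had the fewest counts. Of the 22, 14 were tested and 8 had too few counts. Those 8 (trnV, trnL1, trnK, trnG, trnR, trnH, trnS2 and trnL2, for valine, one leucine, lysine, glycine, arginine, histidine, one serine and the other leucine) were all heavy-strand genes with a heavy-strand neighbour within 5 bases on both sides. They held 46 counts together over all 8 pools, at most 7 for a gene in a pool. Both trnV and trnG had 0 of 413958285 counts, which allows up to 0.00725 CPM of unscaled library size. The other 6 heavy-strand tRNAs (trnF, trnI, trnM, trnW, trnD and trnT), each with more than 5 bases free on at least 1 side or no annotated neighbour there, held 161 to 8463 counts each. The 8 light-strand tRNAs, none of which was hemmed in this way, held 116 to 14940. The 14 tested tRNAs lie on both strands, and among them the counts did not rank by the free bases. On the heavy strand, with 317 bases free on 1 side trnW held 161 counts, and with at most 73 free trnD held 3469. The part of the free bases in these counts was not tested.

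A read that touched 2 genes on its strand was not counted, as the counting command had no option for it. A tRNA gene has only 68 to 77 bases, so a read can reach from it into a neighbour. The tRNA counts are therefore not levels of mature tRNA. The part of uncounted reads in the uneven tRNA counts was not tested. The tRNAs trnS1, trnM, trnI, trnD and trnQ held 92.9% of the 40382 tRNA counts of all pools.

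**Figure D4:**
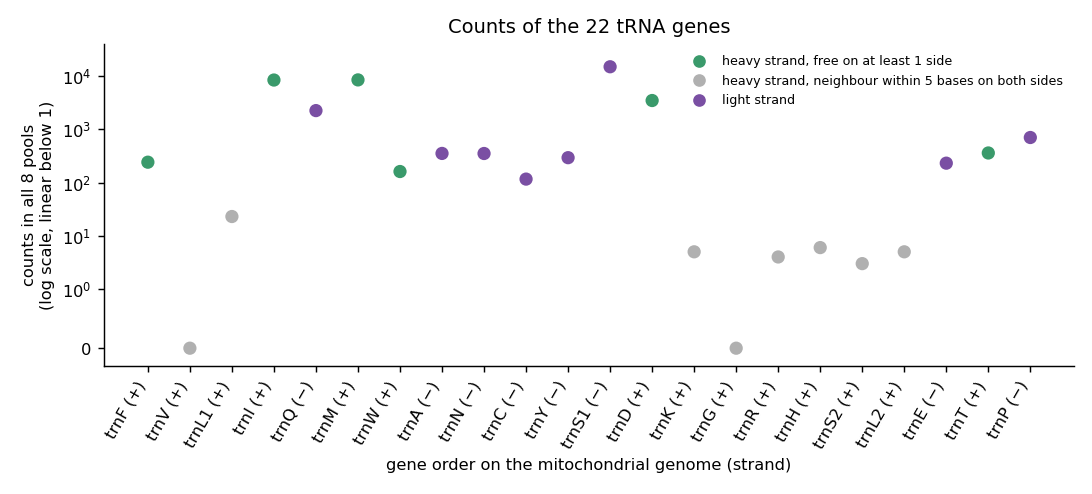
Counts of the 22 tRNA genes summed over the 8 pools (log axis, linear below 1) in gene order, with the strand in brackets. Heavy-strand tRNAs with a same-strand neighbour within 5 bases on both sides hold 0 to 23 counts, other heavy-strand tRNAs 161 to 8463 and light-strand tRNAs 116 to 14940.

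The 3 tRNA genes with the highest levels were described in each pool. The light-strand gene trnS1 (ENSDARG00000081369; 7976 to 8046), for a serine tRNA, lies opposite the gap between mt-co1 and trnD. It measured 7.555, 34.78, 46.91 and 38.26 CPM in wildtype and 31.04, 86.33, 37.99 and 16.97 CPM in mutant replicates 1 to 4. Wildtype replicate 1 was the lowest and mutant replicate 2 the highest pool, as for mt-nd6, and the genotypes overlapped. The log2 fold change was 0.44 ± 0.525 (SE), adjusted p = 0.722 with edgeR, and it was -0.15 without mutant replicate 2.

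The initiator and elongator methionine tRNA gene trnM (ENSDARG00000082084; 4924 to 4992) measured 16.49, 20.58, 21.15 and 19.09 CPM in wildtype and 20.4, 20.77, 25.11 and 21.54 CPM in mutant replicates 1 to 4, which overlapped. The isoleucine tRNA gene trnI (ENSDARG00000083118; 4781 to 4854) measured 16.01, 17.53, 20.24 and 19.96 CPM in wildtype and 23.46, 19.66, 23.7 and 23.47 CPM in mutant replicates 1 to 4. For trnI only mutant replicate 2 fell inside the wildtype range. Their log2 fold changes were 0.18 ± 0.121 for trnM and 0.29 ± 0.12 for trnI (SE), and edgeR's adjusted p-values were 0.463 and 0.229. The highest fitted log2 fold change of the tested members was that of trnC, the cysteine tRNA, at 0.77 ± 0.83 (SE), adjusted p = 0.683 with edgeR. It rested on 2 to 42 counts per pool and changed sign without mutant replicate 2.

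Over the whole group, 29 of the 37 genes had enough counts for the genotype test and 0 of the 29 were called in either direction by edgeR, with 0 of 13 mRNAs, 0 of 2 rRNAs and 0 of 14 tRNAs. Over all 17949 tested genes 2.02% were called, 1.14% higher and 0.88% lower in mutants. At an unadjusted p under 0.05 there were 2 of the 29, mt-rnr1 and trnI, beside 18% of all tested genes. One of the 29, mt-rnr1, had groups that did not overlap, beside 11.7% of all tested genes. DESeq2 called 1 member, mt-rnr1, and limma-voom called 0. The SEs of the log2 fold changes were 0.135 to 0.291 for the mRNAs and 0.12 to 0.83 for the tRNAs.

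**Figure D5:**
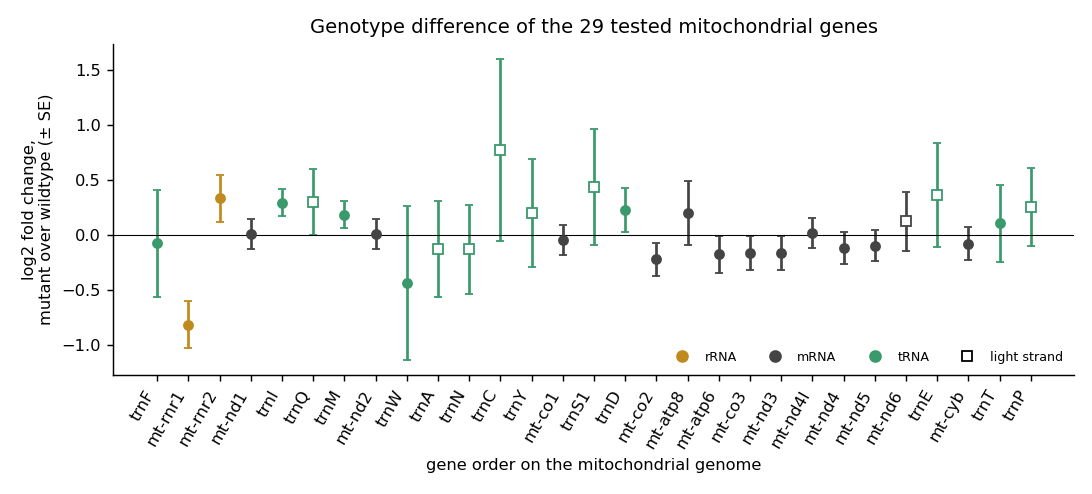
Log2 fold change of mutant over wildtype pools with its SE for the 29 tested mitochondrial genes in gene order, coloured by class, with open squares for light-strand genes. The mRNAs lie between -0.22 and 0.20, mt-rnr1 lies at -0.82 and mt-rnr2 at 0.33, and the tRNAs with few counts have the widest errors.

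Nuclear genes that transcribe, process and maintain the mitochondrial genome were read in 4 lists with 66 tested rows, of which 1 was called, beside 2.02% of all tested genes, a share that 1 of 66 does not exceed. None of 9 rows for transcription passed the test (3 positive, median log2 fold change -0.08). Those with the smallest p were MTERF4, which acts with a methyltransferase in assembly of the mitochondrial ribosome in mammals (4.529 ± 0.887 CPM in wildtype, 2.648 ± 0.556 in mutant; log2 fold change -0.77 ± 0.22), and mterf3, a repressor of mitochondrial transcription in mice (-0.59 ± 0.205). Their edgeR adjusted p-values were 0.0972 and 0.163, and MTERF4 passed with DESeq2 (0.0275) and without wildtype replicate 4 (0.0498), with values up to 0.23 over the alternatives. None of 14 rows for replication and maintenance passed (7 positive, median 0.01), with TWNK, the DNA helicase, at -0.54 ± 0.164 (adjusted p = 0.12) and atad3, an inner membrane ATPase linked to nucleoids, at 0.69 ± 0.219 (adjusted p = 0.134).

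The gene called was tbrg4, whose human product, a protein of the FASTK family, binds mitochondrial mRNAs and affects their stability. It measured 10.74, 11.76, 12.83 and 10.73 CPM in wildtype and 20.02, 19.09, 22.25 and 17.37 CPM in mutant replicates 1 to 4. Each mutant pool lay above each wildtype pool, as in 6.27% of all tested genes, and the log2 fold change was 0.77 ± 0.123 (SE), with an edgeR adjusted p of 0.0142. Over the alternatives the adjusted p ran from 1.16e-05 to 0.0605, and the highest value, the only one above the threshold, came without mutant replicate 3 (log2 fold change 0.71). It was the 1 call among 21 rows for RNA processing and decay (15 positive, median 0.14). The row with the next smallest p there was PDE12, a phosphodiesterase that shortens the poly(A) tails of mitochondrial mRNAs in human cells, at 0.59 ± 0.202 (adjusted p = 0.157). None of 22 rows for tRNA and rRNA modification passed (14 positive, median 0.03), with TRIT1, a tRNA isopentenyltransferase, at 0.48 ± 0.178 (adjusted p = 0.188) and TRMT5, a tRNA methyltransferase, at -0.58 ± 0.258 (adjusted p = 0.26).

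On the nuclear side of the complexes, the rows with the smallest p in their lists did not pass the test. For complex I these were NDUFS8, an iron-sulphur subunit, at a log2 fold change of -0.47 ± 0.251 (SE), and the accessory subunit NDUFB4 at -0.32 ± 0.238, with edgeR adjusted p-values of 0.354 and 0.517. For complex III they were UQCRQ at -0.24 ± 0.255 and the core subunit UQCRC2 at 0.11 ± 0.164, with adjusted p-values of 0.674 and 0.776. For complex IV they were cox7a1 itself at -1.11 ± 0.295 and COX4I2, a tissue isoform of subunit IV, at -0.41 ± 0.152, with adjusted p-values of 0.0776 and 0.187. For ATP synthase they were ATP5F1B and ATP5F1A, the beta and alpha subunits of its F1 head, with ATP5F1B at 0.23 ± 0.179 and ATP5F1A at 0.20 ± 0.191, with adjusted p-values of 0.545 and 0.636. These values moved when mutant replicate 4 was left out, the pool in which long nuclear genes were lowest relative to short ones. The part of gene length in this was not tested. Without mutant replicate 4 the log2 fold changes were -0.77 for NDUFS8 (edgeR adjusted p = 0.0636), -0.61 for NDUFB4 (0.108), -0.56 for UQCRQ (0.138) and 0.03 for ATP5F1B (0.912). They were -1.50 for cox7a1 (0.0144), which then passed, and -0.53 for COX4I2 (0.0819), and the signs of UQCRC2 (-0.05) and ATP5F1A (-0.01) turned. Without mutant replicate 1 they were -0.29 for NDUFS8, -0.18 for NDUFB4, -0.07 for UQCRQ and 0.17 for UQCRC2. In that fit they were -0.91 for cox7a1, -0.43 for COX4I2, 0.31 for ATP5F1B and 0.28 for ATP5F1A.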

How the data were processed

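RNA sequencing libraries of the injured ventricle were compared between 4 wildtype and 4 mutant pools of adult zebrafish. Per the labels' protocols, libraries were made from total RNA with a directional Illumina kit. Whether rRNA was depleted or polyadenylated RNA selected is not given in the sources used here. Reads were summed over the exons of each gene by the authors with featureCounts 2.0.3, per the file headers, reverse-stranded (setting 2) and with GRCz11 genes of Ensembl 109. Its command line sets nothing about paired ends, multiply mapped reads or reads that touch several genes. The submitters' processing notes also name FastQC, MultiQC, fastp and STAR. The deposited values are raw counts per gene, and the deposited gene length in bases was used for levels per kilobase. All per-sample columns were used (0 left out).

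Members are all 37 rows on chromosome MT. The 13 mRNA symbols came from a table of gene IDs. The rRNA and tRNA rows were named by identical start, end and length in a RefSeq gene table of another assembly (GRCz12tu), which matched 37 of 37 rows, and the coordinates printed are those of the deposited table. The members, the nuclear lists and the markers were chosen with earlier results of these data known. Of the lists, cell type markers are given where they touch a result.

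Genes were filtered with filterByExpr at a minimum count of 10, which left 17949. Genotypes were compared over the whole table by the quasi-likelihood test of edgeR 4.0.16 in R 4.3.3 with TMM factors. Benjamini-Hochberg adjusted p-values were held against a threshold of 0.05. The SE of a log2 fold change was taken from the change and the F statistic. Positive values mean higher levels in mutants. For log2 CPM values, and not for the fold changes, a prior count of 2 was added before the log. The fit was tested on simulated data. Shares, being sums over members, were given per pool with no test. Intervals of shares are 95% Wilson intervals, and a count of 0 was read as up to 3 counts. Each pool holds its own fish, and the p-values reflect spread among pools.

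Values in each pool are printed for both rRNAs, the complex IV mRNAs, mt-nd6, the 3 tRNAs with the highest mean CPM and every member past the threshold. Those with the highest and lowest log2 fold change are named too. Of each nuclear list, called genes and the 2 with the smallest p are named. Alternatives were other scaling, filters and tests (DESeq2 1.42.0, limma-voom with limma 3.58.1), a replicate block and each pool left out in turn.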

Additional observations from a re-analysis of the deposited data

Results flagged for a closer look

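In 9 of 128 checks of a member's level, share or ratio within a genotype, a single pool stood far from the other 3 by Dixon's test of the gap at its 95% critical value. Chance flags about 1 in 20 groups, so some of these are expected by chance, and the checks overlap because light-strand genes and shares are related.

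Of the flags, 3 touch wildtype replicate 1 on the light strand or among tRNAs. The log2 CPM of trnS1 was 2.92 in that pool, with the next wildtype pool at 5.12, and trnS1 made up 13.8% of its tRNA counts beside 38.5% in the next pool. The tyrosine tRNA trnY had a log2 CPM of -1.69 there, with the next pool at -0.33. The same pool had the highest per-length ratio of mt-atp8 to mt-atp6 among wildtype pools, 0.108 beside 0.0868.

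Mutant replicate 2 had a light-strand share of 0.312% of mitochondrial counts, with the next mutant pool at 0.1585%, and an mt-nd6 share of mRNA counts of 0.275% beside 0.139%. Its log2 CPM of trnI was the lowest among mutants, 4.3 beside 4.55. In mutant replicate 3 the log2 CPM of mt-nd4, a complex I subunit, was 13.5 beside 13.2 in the next pool. In mutant replicate 4 mt-nd1, another complex I subunit, took 5.82% of mitochondrial mRNA counts beside 5.18%.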

How the results depend on the processing

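All members stayed uncalled under 15 of the 17 alternative fits. With no filter and with DESeq2, 1 member was called lower (mt-rnr1), and 0 were called higher in any fit. The log2 fold change of mt-rnr1 ran from -0.94 to -0.70 over these fits. Genes called over the whole table, 205 higher and 158 lower, became 60 and 97 with library totals alone, 45 and 38 when scaled to the mitochondrial total, and 619 and 488 with DESeq2. With each pool left out in turn they ran from 29 to 273 higher and from 37 to 200 lower, lowest without mutant replicate 3 and wildtype replicate 3, and leaving out a pool also lowers the number of pools tested. Scaled to library totals, the median of all genes was -0.03, and to the mitochondrial total 0.05. The log2 fold change of mt-co1 was 0.021 when scaled to the mitochondrial total. Signs turned when a single pool was left out in the following genes, whose log2 fold changes are given as their range over all alternatives: mt-co1 (from -0.11 to 0.050), mt-nd6 (from -0.21 to 0.28), trnS1 (from -0.15 to 0.70), trnC (from -0.12 to 1.22), mt-atp8 (from -0.15 to 0.41), UQCRC2 (from -0.045 to 0.19) and ATP5F1A (from -0.013 to 0.29). The cause of these changes was not tested. With a filter at 1 CPM in 4 pools, trnC was not tested. Over the alternatives run, the log2 ratio of the mean mitochondrial shares ran from -0.13 to -0.03. That of the rRNA shares ran from 0.20 to 0.43 and that of the tRNA shares from 0.17 to 0.50. For the light-strand shares it ran from -0.11, without mutant replicate 2, to 0.41, taken per length. Counting error limits the tRNA genes, of which 8 could not be tested.

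With the replicate number of the titles as a block, 126 genes were called higher and 84 lower, with 0 members. Same-numbered pools of the genotypes correlated at 0.25, -0.07, 0.04 and -0.07, and 2 pools correlated best with their own number, so the numbers were not taken to pair the pools.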

Other observations

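Within mitochondrial mRNA, mt-atp8 varied most between pools, with an SD of its log2 share of 0.48 over the 8 pools, followed by mt-nd6 with 0.42, beside 0.04 to 0.15 for the other 11 mRNAs. The level per length of mt-atp8 over that of mt-atp6, its neighbour on one transcript, was 0.1077, 0.08363, 0.0868 and 0.08427 in wildtype and 0.07775, 0.128, 0.08021 and 0.1632 in mutant replicates 1 to 4. For mt-nd4l over mt-nd4, which also share 7 bases, it was 0.3751, 0.3589, 0.3499 and 0.3412 in wildtype and 0.3714, 0.4368, 0.3479 and 0.413 in mutant replicates 1 to 4. Mutant replicates 2 and 4 were the highest pools for both ratios. Reads that touched both genes of a pair were not counted, so the size of these ratios is not that of RNA levels alone. The mean log2 level of long nuclear genes less that of short ones, centred over the 8 pools, was 0.18, 0.02, 0.16 and -0.18 in mutant replicates 1 to 4 and -0.09 to 0.05 in wildtype pools. Its part in these ratios was not tested.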
